A study of Mus musculus with 4 samples.

Results

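The transcripts of 8 genes for ER-phagy receptors were followed in the cerebellum of mice that lack Derlin-2 in the nervous system. ER-phagy is the delivery of pieces of the endoplasmic reticulum (ER) to lysosomes by autophagy. The genes were Retreg1, Retreg2 and Retreg3 (also named Fam134b, Fam134a and Fam134c), Rtn3, Ccpg1, Tex264, Atl3 and Calcoco1. Every non-control probe whose RefSeq accession belongs to one of them was taken, which gave 15 probes of 56605 on the array. All 15 were among the 37516 probes that passed the filter on dim signal, and each was well above background on all 4 arrays with 0 saturated spots. They stand for 8 of the 16524 named genes that passed.

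Total RNA from cerebellum at postnatal day 28 was hybridised to one-colour Agilent arrays, 2 control and 2 knockout (KO), all from C57BL/6 mice. Controls carried floxed Derl2 alleles on both chromosomes. The KO group was bred by crossing floxed animals to a line in which the nestin promoter, active in neural precursors, drives Cre recombinase, so cells outside that lineage may keep Derl2. The labels name no control with Cre alone, so carrying Cre and losing Derl2 cannot be told apart. They do not state sex, litter or whether each array is a separate animal, so p-values measure only the spread between these 4 samples. The spread of each probe was estimated together with that of all probes tested. Derl2 encodes Derlin-2, an ER membrane protein of ER-associated degradation, which moves misfolded proteins to the cytosol.

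An ER-phagy receptor sits in or binds to the ER membrane and carries a short motif that binds proteins of the ATG8 family (LC3 and GABARAP) on the growing autophagosome. RETREG1 to RETREG3 and RTN3 have reticulon domains that bend ER tubules and sheet edges, ATL3 is a GTPase that fuses tubules, CCPG1 and TEX264 are single-pass membrane proteins, and CALCOCO1 is soluble and reaches the ER through VAP proteins. Loss of RETREG1 in humans causes a hereditary sensory neuropathy, and Ccpg1 is known as a target of the unfolded protein response, the transcriptional programme switched on by misfolded protein in the ER.

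Promoter sequences were read for the members and for 10 ER stress genes, because the unfolded protein response acts through short elements near the start of transcription. The windows hold the 250 bases before each RefSeq start (build GRCm38.p6). Of the members 8 of 8 had a window; Retreg1 has 4 starts and Tex264 has 2. The window of Hspa5, which encodes the ER chaperone BiP, is shown beside those of Ccpg1 and Retreg2 and the first start of Retreg1. All 4 lie on the plus strand, at chr2:34771840-34772089, chr9:72985254-72985503, chr1:75142536-75142785 and chr15:25843048-25843297. Capitals mark motif matches, the ER stress response element (ERSE) in Hspa5 and the E-box in Retreg2.
Hspa5: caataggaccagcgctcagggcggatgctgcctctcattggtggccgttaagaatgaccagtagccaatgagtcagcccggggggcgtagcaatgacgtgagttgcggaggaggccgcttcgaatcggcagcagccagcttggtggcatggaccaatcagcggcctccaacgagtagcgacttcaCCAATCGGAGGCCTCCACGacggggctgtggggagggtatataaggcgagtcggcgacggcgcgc
Ccpg1: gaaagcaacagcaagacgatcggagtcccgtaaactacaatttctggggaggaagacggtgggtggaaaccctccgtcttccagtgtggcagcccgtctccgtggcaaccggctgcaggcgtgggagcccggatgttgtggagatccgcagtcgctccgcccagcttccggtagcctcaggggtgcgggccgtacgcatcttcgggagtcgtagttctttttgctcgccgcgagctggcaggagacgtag
Retreg2: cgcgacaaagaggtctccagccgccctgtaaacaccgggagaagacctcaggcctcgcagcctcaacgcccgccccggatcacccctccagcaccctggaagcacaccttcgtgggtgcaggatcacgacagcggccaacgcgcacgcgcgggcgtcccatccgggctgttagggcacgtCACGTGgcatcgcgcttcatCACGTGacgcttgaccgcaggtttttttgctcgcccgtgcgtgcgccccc
Retreg1: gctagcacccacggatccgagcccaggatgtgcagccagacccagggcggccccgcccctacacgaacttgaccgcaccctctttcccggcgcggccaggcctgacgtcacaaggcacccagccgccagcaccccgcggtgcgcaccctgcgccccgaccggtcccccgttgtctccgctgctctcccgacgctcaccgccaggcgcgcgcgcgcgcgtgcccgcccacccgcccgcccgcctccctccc

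Motifs were searched on both strands. ERSE was searched as CCAAT and CCACG with 9 bases between them. It was found in 0 of 8 members and in 3 of 10 ER stress genes, Hspa5, Hsp90b1 and Pdia6, against 0.113% of the 32851 windows of all genes. ERSE-II, searched as ATTGG and CCACG with 1 base between them, was found in 0 members and in Herpud1, against 0.0304% of windows. The core of the unfolded protein response element, TGACGTGG, was found in 0 members and 0 ER stress genes (0.563% of windows). The C/EBP-ATF response element, searched as TGATGNAA, was found in 0 members and in Herpud1 (3.45% of windows). The E-box, CACGTG, which forms the centre of the element bound by TFEB, was found in 2 of 8 members and 0 of 10 ER stress genes. It had 2 matches in Retreg2 and 1 before the fourth start of Retreg1 (6.02% of windows). The background is a share of windows, so a gene with several starts has more windows in which to match. These are matches of letters in a short window, not binding sites, and an element outside the window would not be seen.

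Derl2 itself checked the labels: its 2 probes gave 37.6% and 30.2% of the control signal in KO, with both KO arrays below both control arrays. All arrays lay on 1 slide, the controls on the first positions and the KO arrays on the later ones, so position and group cannot be told apart. Of 6 markers each for granule cells, Purkinje cells and Bergmann glia, all passed the filter on dim signal. The array of control replicate 2 stood apart in choroid plexus markers. Their summed signal, in multiples of the array's 75th percentile, was 136 there, 6.68 for control replicate 1, and 7.08 and 7.12 for the KO arrays. The same array was also highest in 3 red blood cell genes, with a sum of 346. Control replicate 1 had 235 and the KO arrays 234 and 231. For 8 oligodendrocyte and myelin genes the sums came to 446 and 423 in control and 368 and 416 in KO, with 8 of 8 below 0 in the fit (63.9% of all genes) and 5 of 8 lower without overlap (32.1% of all genes). For 8 microglia genes they came to 22.9 and 22.4 in control and 17.8 and 20.9 in KO, with 8 of 8 below 0 and 5 of 8 lower without overlap, against the same 63.9% and 32.1%. The part of these cell types in the values that follow was not tested, and fewer cells of a type and less RNA per cell cannot be told apart in whole tissue.

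No ER-phagy receptor differed between KO and control at an adjusted p under 0.05. Levels are given as log2 signal minus the array's 75th percentile, so levels of different probes are not comparable, and differences as KO minus control on the same scale. For the brightest probe of each gene, the KO signal lay between 84.0% of control for Retreg1 and 115% for Ccpg1. The call rate over the whole array was also 0% at this threshold (0 of 37516 probes, limma). Both probes of the deleted gene Derl2 missed it too, each at a limma adjusted p of 0.273. At an unadjusted p under 0.05 the members had 0 of 15 probes, where 14% of all probes passed. Both KO arrays were below both controls on 6 of 15 probes and above them on 0 of 15, against 26.9% and 22.5% of all probes. By brightest probe, 7 of 8 members had a difference below 0, as did 63.9% of all genes. For 5 of 8 both KO arrays were below both control arrays, which held for 32.1% of all genes. For 0 of 8 both KO arrays were above both controls (13.8% of all genes). The median difference of the 8 was -0.11, against -0.06 over all genes. The count of 5 dropped to 1 when the arrays were scaled to spike-in probes and to 3 when all probes of a gene were averaged. The median then was -0.03 and -0.10. Spike-in scaling also moved the median of all probes, from -0.03 to 0.06. Without control replicate 2, the array with choroid plexus signal, 7 of 8 lay below the remaining control on both KO arrays, with a median of -0.15. Without control replicate 1, 5 of 8 did, with a median of -0.06, and 3 of 8 lay above. The shares over all genes were not counted under spike-in scaling, with probes averaged or with an array left out. These counts therefore have no background. Groups also separate more easily with 1 control than with 2.

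**Figure D1:**
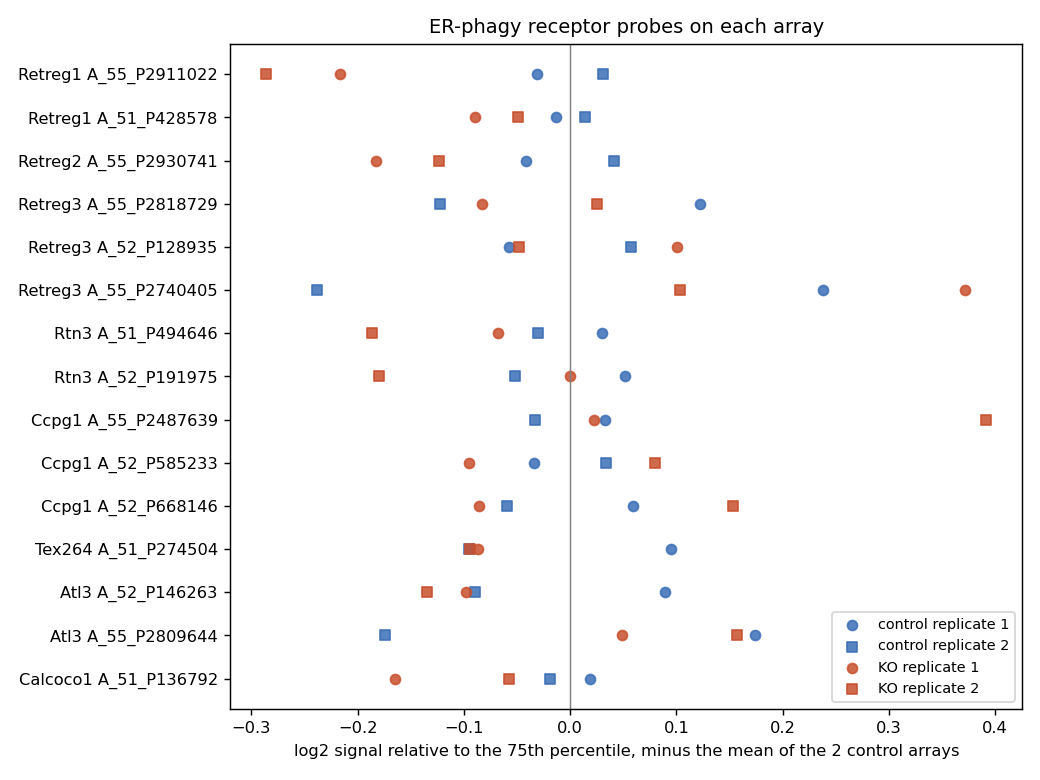
Log2 signal of the 15 ER-phagy receptor probes on each array (rows), relative to the mean of the 2 control arrays; blue marks are controls, orange marks KO, circles replicate 1 and squares replicate 2. Both KO arrays lie to the left of both controls for 6 probes and to the right for 0; the Ccpg1 probe A_55_P2487639 is high on KO replicate 2 alone.

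Of the RETREG family, Retreg1 had the smallest p of the members. RETREG1 acts on ER sheets. Its brighter probe, A_55_P2911022 (listed for NM_001277315), read 1.66 and 1.72 in the controls and 1.47 and 1.40 in KO. Both KO arrays were below both controls, with a gap larger than the spread within either pair. The means were 1.69 ± 0.044 and 1.44 ± 0.049 (SD, n = 2 each), a difference of -0.25 (SE 0.10, 95% interval -0.52 to 0.02, limma adjusted p 0.379). The interval runs from 69.5% to 102% of the control signal. The other probe, A_51_P428578 (listed for NM_025459), read -0.68 and -0.65 in the controls and -0.75 and -0.71 in KO. It had the same order, but its difference was only -0.07 (SE 0.10, interval -0.33 to 0.19). On the brighter probe the difference of Retreg1 kept its sign in all 15 alternative settings, from -0.29 to -0.17, with the value nearest 0 under spike-in scaling.

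Retreg2 and Retreg3 are its paralogues. Retreg2 was measured by 1 probe, A_55_P2930741 (NM_170755), brighter than 97.1% of the probes tested. It read 5.10 and 5.19 in the controls and 4.96 and 5.02 in KO, so the groups did not overlap. The difference was -0.15 (SE 0.10, interval -0.43 to 0.12, limma adjusted p 0.536), or 89.9% of control. Retreg3 had 3 probes, all listed for NM_026501, and on each the groups overlapped. The bright one, A_55_P2818729, read 3.27 and 3.02 in the controls and 3.06 and 3.17 in KO, with both KO arrays between the controls. Its difference was -0.03 (SE 0.13, interval -0.39 to 0.33). The 2 dim probes differed by 0.03 (A_52_P128935, SE 0.12) and 0.24 (A_55_P2740405, SE 0.21). The last of these was the dimmest member probe, with a signal of 22.9 to 33.5 before scaling and controls 0.48 apart.

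Rtn3 and Atl3 code for proteins that shape and join ER tubules. Rtn3 had the brightest member probe, A_51_P494646, above 98.6% of the probes tested. It read 5.88 and 5.82 in the controls and 5.78 and 5.66 in KO, so the groups were separate but close. The difference was -0.13 (SE 0.11, interval -0.41 to 0.16, limma adjusted p 0.612), or 91.6% of control. A second Rtn3 probe of the same accession (NM_001003934), A_52_P191975, differed by -0.09 (SE 0.12), and its groups overlapped. Atl3 on its brighter probe, A_52_P146263 (NM_001163505), read 0.13 and -0.05 in the controls and -0.06 and -0.09 in KO. Control replicate 2 was 0.01 above the nearer KO array, so the groups barely separated. The difference was -0.12 (SE 0.11, interval -0.43 to 0.19, limma adjusted p 0.662). The dimmer Atl3 probe, A_55_P2809644 (same accession), pointed the other way at 0.10 (SE 0.16), with controls 0.35 apart, so the 2 probes gave Atl3 no common direction.

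Ccpg1, a receptor whose own transcript is known to respond to ER stress, was the 1 member with a positive difference on its brightest probe. That probe, A_55_P2487639 (NM_001114328), read 2.16 and 2.09 in the controls, 2.15 in KO replicate 1 and 2.52 in KO replicate 2. KO replicate 1 thus lay between the controls, and KO replicate 2 stood 0.37 above KO replicate 1. The difference was 0.21 (SE 0.16, interval -0.22 to 0.64, limma adjusted p 0.583), and it was 0.02 without KO replicate 2 and 0.39 without KO replicate 1. The other 2 probes of Ccpg1 also read highest in KO replicate 2 and lowest in KO replicate 1. Their differences were -0.01 (A_52_P585233, NM_001286545, SE 0.12) and 0.03 (A_52_P668146, NM_028181, SE 0.13). The 3 probes thus agreed on the order of the KO arrays but not on a difference between the groups.

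Tex264 and Calcoco1 had 1 probe each. TEX264 is held to account for much of the ER taken up by autophagy in starved cells. Its probe, A_51_P274504 (NM_011573), read 3.50 and 3.31 in the controls and 3.32 and 3.31 in KO. Control replicate 1 was high and the other 3 arrays were within 0.01 of each other. The difference was -0.09 (SE 0.12, interval -0.40 to 0.22, limma adjusted p 0.74), and without control replicate 1 it was 0.005. The Calcoco1 probe, A_51_P136792 (NM_026192), read -2.28 and -2.32 in the controls and -2.47 and -2.36 in KO. The groups were separate, with a difference of -0.11 (SE 0.10, interval -0.39 to 0.17, limma adjusted p 0.647).

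**Figure D2:**
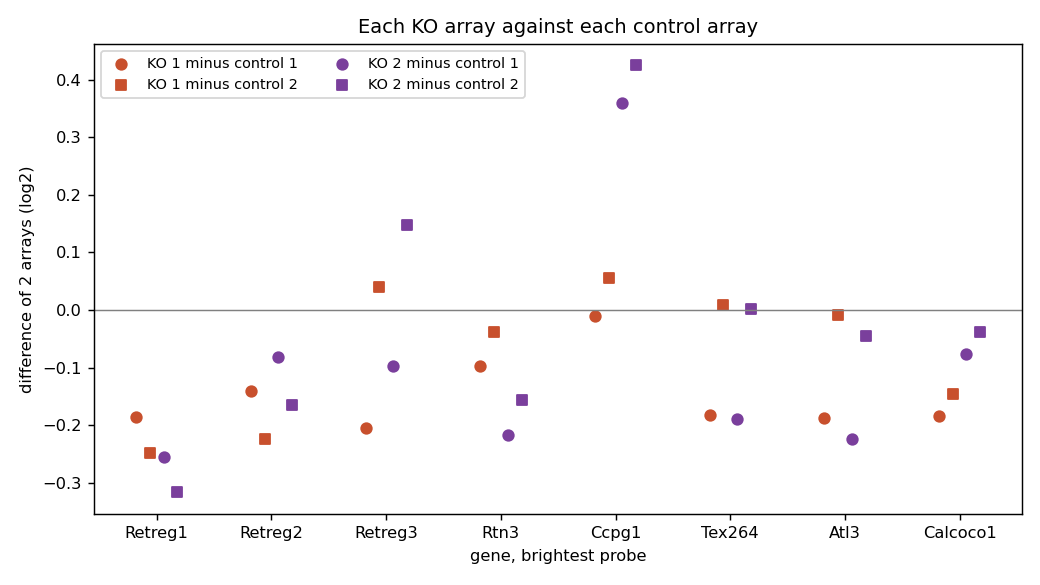
Difference between each KO array and each control array (y axis, log2) for the brightest probe of each ER-phagy receptor gene (x axis); colour gives the KO array and shape the control array. All 4 marks lie below 0 for Retreg1, Retreg2, Rtn3, Atl3 and Calcoco1, and for Ccpg1 only KO replicate 2 lies well above 0.

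The size of the members' differences depended on which control array was taken. Against control replicate 1, 8 of 8 brightest probes were lower in KO replicate 1 and 7 of 8 in KO replicate 2, with medians of -0.18 and -0.14. Against control replicate 2, 3 of 8 were higher in either KO array, with medians of -0.02 and -0.04. Over all genes the 4 medians lay between -0.06 and -0.05, and the share of genes lower in each pair was not counted. Control replicate 1 had 1350 spots on patches of raised local background, against 32, 0 and 0 on the other arrays. No member probe lay on such a patch. Retreg3, Tex264 and Atl3 were the members whose controls were farthest apart on the brightest probe, by 0.24, 0.19 and 0.18, each with control replicate 1 higher.

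The 95% intervals bound what these arrays leave room for. For 13 of the 15 probes the whole interval lay within a 1.5-fold change in either direction (0.585 on the log2 scale), and for all 15 within a 2-fold change. The exceptions at 1.5-fold were the brightest Ccpg1 probe and the dimmest Retreg3 probe, whose upper bounds were 0.64 and 0.80. The shares of all probes within these limits were not counted, so these counts have no background. Over all probes tested the median absolute difference was 0.16. When 2 against 2 arrays were simulated, 73.5% of probes changed by 0.5 reached an unadjusted p under 0.05 and 95% of those changed by 1, but 0% of either passed the adjusted threshold. The simulated noise was independent from probe to probe, with variances drawn from the distribution that limma estimated. Of 37516 probes 200 were changed. Shifts shared by many probes of an array, as in the choroid plexus markers, were not simulated. These rates therefore need not hold for the real arrays, and the adjusted rate also depends on how many probes change.

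In the same arrays the ER stress genes were higher in KO. The 10 genes, picked with earlier results of these data known, encode ER chaperones and folding enzymes (Hspa5, Hsp90b1, Pdia4, Pdia6, Sdf2l1), stress transcription factors (Xbp1, Atf4, Ddit3) and the stress-induced Trib3 and Herpud1. Of these, 10 of 10 had a difference above 0 (36.1% of all genes) and 9 of 10 were separate (13.8% of all genes), with a median of 0.60 and a range of 0.32 to 1.42. None passed the adjusted threshold, and 5 had an unadjusted p under 0.05 and were higher, as were 3.16% of all genes. Xbp1, the transcription factor of the IRE1 branch, had the smallest p. It read 4.82 and 4.78 in the controls and 5.58 and 5.41 in KO, a difference of 0.70 (SE 0.11, interval 0.39 to 1.01, limma adjusted p 0.273). The upper bounds of 7 of the 8 members' brightest probes lay under 0.4, the exception being Ccpg1. The share of all genes with such a bound was not counted. The intervals were not separate as groups: that of Ccpg1 overlapped those of 10 of 10 ER stress genes, that of Retreg3 6 of 10 and those of the other 6 members 5 of 10 each. Set against the mean of the controls, the ER stress median was 0.79 in KO replicate 1 and 0.42 in KO replicate 2. Ccpg1 was higher in KO replicate 2 than in KO replicate 1 on its 3 probes. These orders rest on 1 pair of arrays, and whether Ccpg1 followed the ER stress genes was not tested.

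**Figure D3:**
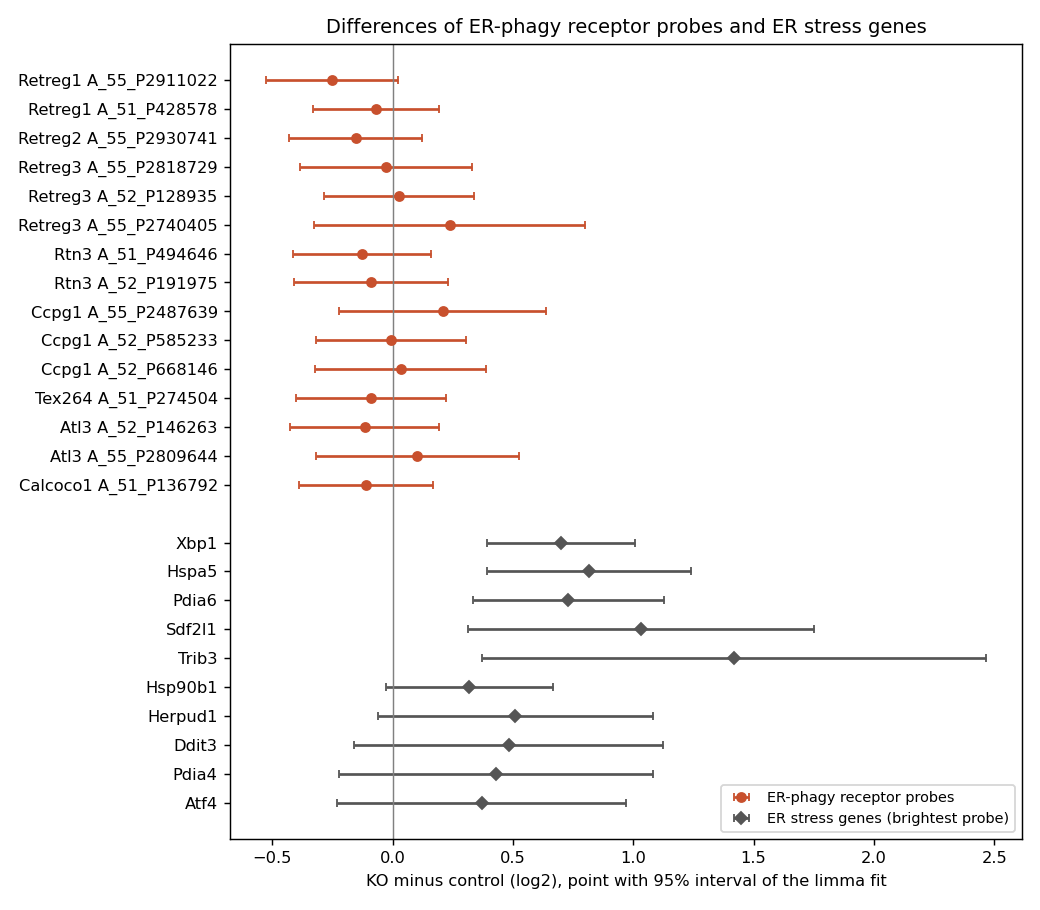
KO minus control difference (x axis, log2) with its 95% interval from limma for the 15 ER-phagy receptor probes (orange circles) and the brightest probes of 10 ER stress genes (grey diamonds). All 15 receptor intervals include 0, and the 10 ER stress points lie between 0.32 and 1.42.

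ATG8 proteins coat the forming autophagosome and are what the receptors bind. The 5 ATG8 family genes had 5 differences below 0, with a median of -0.16, 3 of 5 lower with separate groups and 0 at an unadjusted p under 0.05. Over all genes 63.9% were below 0 and 32.1% lower with separate groups, and the median was -0.06. That p was reached by 5.65% of all genes lower and 3.16% higher. Under spike-in scaling 3 of the 5 were below 0. Gabarap, a receptor-binding ATG8 protein, had the smallest p of them. It read 4.95 and 4.93 in the controls and 4.64 and 4.80 in KO (difference -0.22, SE 0.11, limma adjusted p 0.443). Of 15 genes for autophagy initiation and ATG8 conjugation, 9 were above 0 (36.1% of all genes), and the median was 0.02. With separate groups 5 were higher and 3 lower, against 13.8% and 32.1% of all genes. An unadjusted p under 0.05 was reached by 1 gene, in a direction in which 3.16% of all genes passed. That was Atg9a, a lipid scramblase of the vesicles that seed autophagosomes. It read 0.45 and 0.33 in the controls and 0.86 and 0.68 in KO (difference 0.38, SE 0.12, limma adjusted p 0.325). The lowest p below 0 belonged to Atg7, the enzyme that activates ATG8 proteins, at -0.15 (SE 0.10). The difference of Atg13, singled out after its values were seen, was 1.36, but it rests on control replicate 1, which read 1.24 where the other arrays read 3.70 to 3.90. Of the 4 soluble cargo receptors, 1 was above 0 (36.1% of all genes). That was Sqstm1, coding for p62, at 0.10 (SE 0.10), while Tax1bp1 differed by -0.11 (SE 0.12).

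ER shaping proteins other than the members were given by 15 genes. Of these 5 were above 0 (36.1% of all genes), and the median was -0.09. With separate groups 7 were lower and 2 higher, against 32.1% and 13.8% of all genes. Ckap4, which encodes the sheet protein CLIMP-63, was the 1 gene at an unadjusted p under 0.05, in a direction in which 5.65% of all genes passed. It read -1.46 and -1.62 in the controls and -1.92 and -2.13 in KO (difference -0.48, SE 0.13, interval -0.84 to -0.13, limma adjusted p 0.295). Reep4, a tubule protein of the REEP family, was the leading gene above 0, at 0.23 (SE 0.10). Of 8 genes for UFMylation, the attachment of the small modifier UFM1 that takes part in ER-phagy, 3 were above 0 and 0 reached an unadjusted p under 0.05. Over all genes 36.1% were above 0, and that p was reached by 5.65% lower and 3.16% higher. Ddrgk1, the ER anchor of the UFM1 ligase, differed by -0.18 (SE 0.10), and Ufl1, the ligase, by 0.16 (SE 0.10).

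Other partners and regulators of ER-phagy included Canx, the calnexin that pairs with RETREG1 in collagen clearance, and Pgrmc1, a partner of RTN3. Of 10 such genes 3 were above 0, the median was -0.05, and 0 reached an unadjusted p under 0.05. Over all genes 36.1% were above 0, the median was -0.06, and that p was reached by 5.65% lower and 3.16% higher. Canx read 5.01 and 5.13 in the controls and 5.37 and 5.20 in KO, a difference of 0.22 (SE 0.12, limma adjusted p 0.478). Pgrmc1 differed by -0.21 (SE 0.11). Of 7 lysosomal genes 1 was above 0, the median was -0.13 and 5 were lower with separate groups, as were 32.1% of all genes. Ctsd, the lysosomal protease cathepsin D, read 4.05 and 4.09 in the controls and 3.75 and 3.79 in KO. Its difference was -0.30 (SE 0.10, interval -0.57 to -0.04, limma adjusted p 0.328), and Mcoln1, a lysosomal calcium channel, differed by 0.02 (SE 0.11). Of the microglia genes given above, 5 of 8 were also lower with separate groups; their part in the lysosomal values was not tested.

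**Figure D4:**
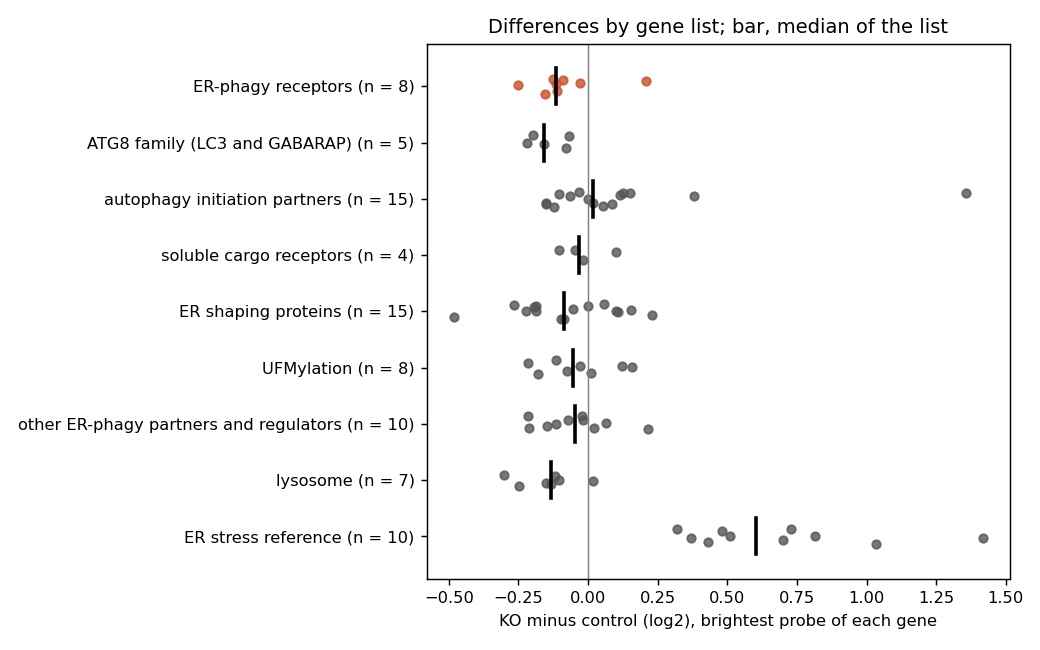
KO minus control difference (x axis, log2) of the brightest probe of each gene, by gene list (rows); points are genes and black bars list medians. The median of the ER-phagy receptors is -0.11, and the ER stress list, with a median of 0.60, is the list whose genes are all above 0.

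The pattern of Retreg1 over the 4 arrays was shared by many genes. After each probe's mean was subtracted, the genes nearest to its brighter probe were Tubb4a, Tmem81 and Lrrc75b, at Euclidean distances of 0.015, 0.019 and 0.020 on the log2 scale over 4 arrays. Of 16523 other genes, 503 lay within 0.1, so these 3 are a few of many with a similar course. Tubb4a, a beta tubulin, read 5.50 and 5.58 in the controls and 5.31 and 5.24 in KO, a difference of -0.26 (SE 0.10).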

How the data were processed

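Groups and replicate numbers came from the sample titles. The scanner files hold the authors' deposited intensity values on a linear scale. They were made with Agilent Feature Extraction, version 12.1.1.1 per the file headers and 10.7.1.1 per the submitters' processing notes, from 150 ng of RNA labelled with Cy3. The processed signal is background-subtracted and detrended within an array, not scaled between arrays. The deposited log2 table was used as an alternative; its scale and centring are not stated, and its differences between arrays matched the scanner values within 0.05 for all of 35661 probes once scaled. Log2 signal was averaged over a probe's spots, without control spots and 65 to 176 flagged outlier spots per array; the 75th percentile of the array was then taken off. A probe was kept if it was well above background on every array of either group, and 37516 were tested with limma 3.58.1 in R 4.3.3 (4.35 degrees of freedom) and Benjamini-Hochberg adjustment over all of them. Of the 4.35 degrees of freedom, 2.35 came from the variance shared over all probes. The SE of a probe with little spread is therefore larger than its own arrays would give. With 2 arrays a group, no two-sided permutation p can be under 0.333. The number of arrays limits the precision. Probe accessions were named through a RefSeq table of GRCm38.p6, without versions (32994 of 35886); promoters are RefSeq's. For each gene the probe with the highest mean signal is the brightest. The members and gene lists were chosen with earlier results of these data known; all members were described, and of each list the gene with the smallest p in each direction. The fit was run on simulated data, with variances drawn from the distribution that limma estimated on these arrays. There 5.00% to 5.05% of unchanged probes had an unadjusted p under 0.05. That rate follows from how the data were simulated and does not check the fit on the real arrays. Alternatives changed the background correction, scaling, dim-probe filter, outlier spots, patches of raised local background, variance model, replicate block and arrays used.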

Additional observations from a re-analysis of the deposited data

How the results depend on the processing

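All alternative settings were planned; the counts of members lower in KO and below 0 and the counts in the ER stress and ATG8 lists were added after the data were seen. No member probe passed the adjusted threshold in any setting. Retreg1 on its brighter probe, Retreg2, both Rtn3 probes, Ccpg1 on its brightest probe, Atl3 on its brighter probe and Calcoco1 kept their sign in all 15 settings. Under spike-in scaling Retreg1 A_51_P428578 was 0.015, Retreg3 A_55_P2818729 0.056 and Ccpg1 A_52_P585233 0.077; under quantile normalization the last 2 were 0.019 and 0.035. Without control replicate 1, Retreg3 A_55_P2818729 was 0.094, Retreg3 A_52_P128935 -0.031 and Tex264 0.0045. Without control replicate 2, Retreg3 A_55_P2740405 was -0.0010, Ccpg1 A_52_P585233 0.026, Ccpg1 A_52_P668146 -0.025 and Atl3 A_55_P2809644 -0.071. Without KO replicate 1, Retreg3 A_55_P2818729 was 0.026, Retreg3 A_52_P128935 -0.048 and Ccpg1 A_52_P585233 0.080; without KO replicate 2, Ccpg1 A_52_P668146 was -0.086. With an array left out, the highest values were 0.101 for Retreg3 A_52_P128935, 0.476 for Retreg3 A_55_P2740405, 0.154 for Ccpg1 A_52_P668146 and 0.277 for Atl3 A_55_P2809644, and the lowest were -0.095 for Ccpg1 A_52_P585233 and -0.185 for Tex264 and -0.151 for Retreg3 A_55_P2818729. Over the array, 0 probes passed the adjusted threshold, and this became 2 under normexp, 4 under the intensity trend with robust variances, 1 under quantile normalization, scaling to the median, spike-in scaling and omission of patch spots, and 0 to 98 with an array left out. The count of member probes at an unadjusted p under 0.05, 0, was 1 under normexp and 1 under the intensity trend, both times Retreg1, and 0 to 1 with an array left out, the 1 being Ccpg1 without KO replicate 1. The count of members higher in KO with separate groups, 0, was 1 under normexp, quantile normalization and spike-in scaling, and 0 to 3 with an array left out. The count lower with separate groups, 5, was 1 under spike-in scaling, 3 with all probes averaged, and 5 to 7 with an array left out. For both counts the share over all genes was not counted in these settings. The median of the members, -0.11, was -0.029 under spike-in scaling and ran from -0.15 to -0.06 with an array left out. Spike-in scaling moved the median of all probes from -0.03 to 0.06. Where a group is left with 1 array, that array is taken to vary as the other group does. The replicate numbers do not mark shared animals in the labels, and deviations of same-numbered arrays correlated at 0.12; with the replicate block 0 probes passed, 0 member probes had an unadjusted p under 0.05, and Retreg1 had a limma adjusted p of 0.354. The cause of these shifts was not tested.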

Other observations

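Rtn3 and Atl3 lie next to each other on chromosome 19 in the RefSeq table, with 1 predicted gene, Gm52401, between them. Their brightest probes gave differences of -0.13 and -0.12, both with intervals that include 0, where the median over all genes was -0.06. The dimmer Atl3 probe differed by 0.10, so a shared course of the neighbours is not shown.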
